A study of Paxillus involutus with 12 samples.

Results

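The late step of carbon starvation in the fungus Paxillus involutus was the change in expression between day 8 and day 13 of culture. It was described from the 3 arrays titled day 13 and the 3 titled day 8, which are 6 of the 12 arrays of the series. Each array carried 12214 numbered sequences, and all of them entered the comparison. The random-sequence control feature was left out.

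The mycelium was of strain ATCC 200175 and grew without a host on glass beads in Petri dishes. All cultures had the same history. They grew for 10 days on Minimum Melin Norkrans medium, spent 24 h without nitrogen, and then received that medium amended to a C/N ratio of 3, with ammonium as the nitrogen source. The days count the incubation that followed, and RNA was also taken at days 2 and 6. Each array held total RNA of a separate replicate made of 2 pooled cultures. The samples include no cultures of these ages that were supplied with carbon, so starvation and culture age cannot be told apart.

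Paxillus involutus is an ectomycorrhizal basidiomycete. Such fungi take sugars from tree roots and pass mineral nutrients and nitrogen to the tree. When sugar runs out, filamentous fungi draw on their own cell material. Autophagy, named in the title of the study, carries cytoplasm and organelles to the vacuole, where they are broken down and their parts reused. Old hyphal compartments empty while growth at the tips can go on.

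The sequences carry numbers only, and 0 of the 12214 IDs occur among the 18033 genes listed for the strain's genome assembly. Neither the genes of autophagy nor markers of mycelium can therefore be picked out, and no role is given to any sequence. Whether each sequence is a separate gene is not recorded. Consecutive numbers with similar levels (means within 0.5) and profiles (r over 0.95 across the 12 arrays) formed 263 runs holding 555 sequences.

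Values are log2 expression levels made by the authors with RMA, which brings all arrays to nearly the same distribution. Each change is therefore relative, and a shift in the amount of messenger RNA per mycelium does not show. The array medians lay between 11.35 and 11.38. The random control lay between 4.49 and 4.70, and 11545 sequences were at least 2-fold above it on all 6 arrays of days 8 and 13.

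The labels of the day 8 arrays carry position numbers that disagree. Their subarray numbers are 4 to 6 but their array numbers are 7 to 9, and the reverse holds for those titled day 6. The titles were followed, and main results that moved with days 6 and 8 exchanged are given in that setting too. The arrays of day 13 lie at positions 10 to 12. Position on the chip and harvest day cannot be told apart.

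The 2 harvests stood well apart from the spread between their arrays. Within day 8, pairs of arrays differed at least 2-fold in 0, 13 and 8 sequences. Within day 13 the pairs differed in 42, 44 and 59. Across the days, each of the 9 pairs of arrays differed in 798 to 1249 sequences. Day 13 arrays varied more among themselves, with a median SD of 0.139 on the log2 scale against 0.0771 at day 8. The SD was the larger at day 13 in 75.6% of the sequences. Among the day 13 arrays, replicate 3 stood farthest from day 8, with 570 sequences at least 2-fold above and 570 at least 2-fold below the day 8 mean. Replicate 2 gave 452 and 418, and replicate 1 gave 422 and 513.

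**Figure D1:**
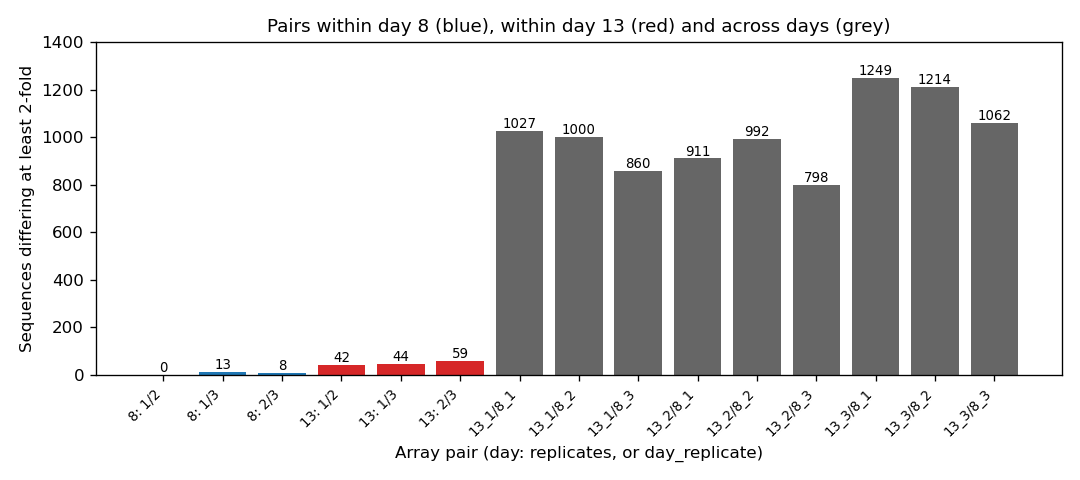
Number of sequences (vertical axis) that differ at least 2-fold between the 2 arrays of each pair (horizontal axis). Pairs within day 8 reach 13, pairs within day 13 reach 59, and pairs across the days start at 798.

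A large share of the sequences differed between the 2 harvests, but by small amounts. In limma, with 1 mean per day over all 12 arrays and adjusted p under 0.05, 3148 sequences rose and 3461 fell. These are 25.8% and 28.3% of the 12214, and together 54.1% were called. The median rise among them was 0.51 on the log2 scale and the median fall was -0.51. At least 2-fold, 437 sequences rose (3.58%) and 447 fell (3.66%), together 7.24% of those tested. With days 6 and 8 exchanged, 3613 sequences rose and 3530 fell, so that rises were the more numerous. The falls of at least 2-fold then numbered 679 and the rises 554. A test against a minimum fold of 1.5 left 511 rises and 473 falls. Called sequences were also no longer the majority without day 8 replicate 2 (5640) or at adjusted p under 0.01 (4938).

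Few of the called changes had overlapping arrays. The test sets each difference against the spread between arrays, so this follows from the calls and is no further evidence. All 3 day 13 arrays lay above all 3 day 8 arrays in 3561 sequences (29.2%) and below them in 3928 (32.2%). Of these, 507 and 555 were not called. Of the called rises, 94 had overlapping arrays, and of the called falls 88. Among changes of at least 2-fold, 1 rise and 0 falls overlapped. In 267 rises and 178 falls the gap between the nearest arrays of the 2 days was itself over 2-fold.

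The tails of the distribution were not symmetric. Rises and falls were about equally many at 2-fold, but at least 4-fold there were 83 rises and 28 falls. At least 8-fold there were 24 rises and 1 fall, and at least 16-fold there were 8 rises and 0 falls. The most negative log2 difference was -3.01 and the most positive was 4.26. The surplus of large rises was smaller with days 6 and 8 exchanged, where 94 sequences rose and 73 fell at least 4-fold, and 25 rose and 9 fell at least 8-fold. When the runs of consecutive numbers with similar profiles were averaged, the 24 rises of at least 8-fold became 20. The largest of these runs held 4 numbers, and its sequences went from 9.85 to 9.97 at day 8 up to 14.06 to 14.13 at day 13.

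The early step, from day 2 to day 6, shares no array with the late step. It called 5635 sequences (46.1%), and its surplus of rises lay at smaller folds. At least 2-fold, 282 sequences rose and 152 fell. In that step 5 sequences rose and 8 fell at least 4-fold, and 0 rose and 1 fell at least 8-fold. The SD of the log2 difference over all sequences was 0.57 in the late step and 0.44 in the early step. The steps also differ in length, at 5 and 4 days. Exchanging days 6 and 8 gave 7256 early calls and 7143 late calls. In the early step 512 sequences were then over 1 higher on the log2 scale and 501 over 1 lower, called or not. The early surplus of rises was thus nearly absent in that setting. Array weights gave 7185 early and 6744 late calls, so the order of the 2 counts also depended on the fit.

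**Figure D2:**
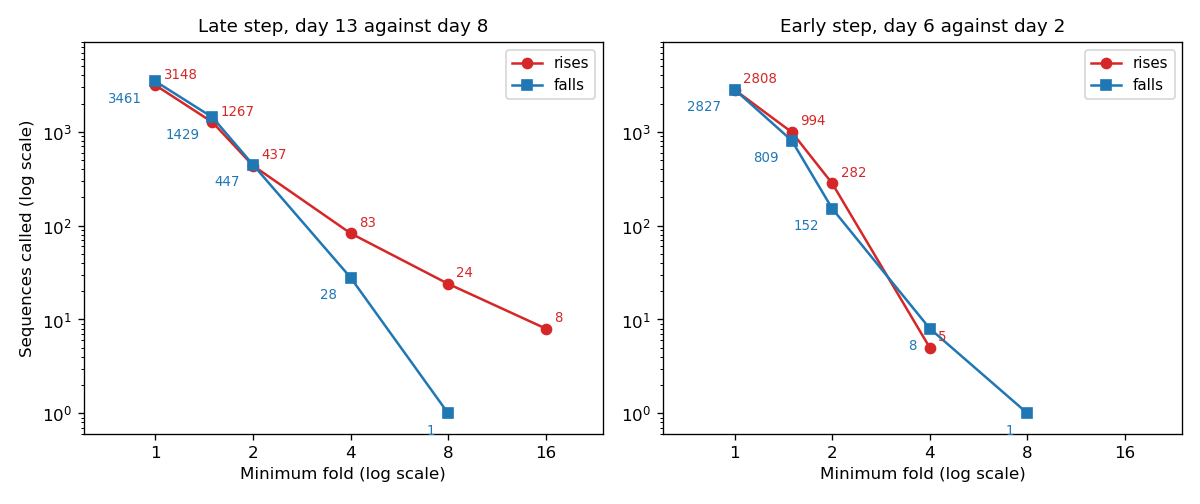
Number of sequences called (vertical axis, log scale) at or above a minimum fold (horizontal axis, log scale) in the late step (left) and the early step (right). In the late step 24 rises and 1 fall reach 8-fold, while the early step has no rise at that size; counts of 0 are not drawn.

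The largest rises started from a moderate signal. The 24 sequences that rose at least 8-fold had day 8 means from 6.30 to 11.85, with a median of 9.97, below the median of 11.37 for all sequences. Selection for a large rise after day 8, with no reading above 15.57, by itself favours a low start and a high end. At day 13 the median of the 24 was 14.01. Of the 24, 12 reached 14 or more, as did 350 of all 12214 sequences. The 12 include the run of 4 consecutive numbers named above. The day means before the rise often differed. Those of days 2, 6 and 8 stayed within 0.5 of each other in 9 of the 24, against 62% of all sequences. That was so in 6 of the 28 falls of at least 4-fold. Replicate arrays of the 24 also scattered more. Their median SD was 0.27 at day 2 and 0.29 at day 6, against 0.13 and 0.08 over all sequences. Such scatter moves means apart, and the day 8 mean also entered the selection. How much this adds was not tested. The 28 falls of at least 4-fold ran from a median of 11.84 at day 8 to 9.50 at day 13.

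Sequences at background were few among the large late changes, as among all sequences. Of the 884 changes of at least 2-fold, 877 were in sequences at least 2-fold above the control on all 6 arrays. The same held for 11545 of all 12214 sequences. Only 3 sequences crossed from below that line on all day 8 arrays to above it on all day 13 arrays, and 2 crossed the other way.

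The 2 largest rises were those of paxillus_10215 and paxillus_9608. paxillus_10215 read 9.88, 10.05 and 10.20 at day 8 and 14.30, 14.37 and 14.23 at day 13. The arrays of each day lay close together and far from those of the other day. The rise was 19.1-fold (log2 difference 4.26 ± 0.16 SE, limma adjusted p = 8.07e-09). Its values at day 2 had been 10.04, 10.09 and 10.19 and at day 6 10.08, 10.55 and 9.73, so that the 9 earlier arrays overlapped between days. Its early difference was 0.01 (adjusted p = 0.952).

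paxillus_9608 read 8.72, 8.79 and 8.87 at day 8 and 12.75, 12.98 and 13.37 at day 13. The rise was 18.9-fold (log2 difference 4.24 ± 0.17 SE, limma adjusted p = 9.04e-09). Here the day 13 arrays were more spread, but the lowest was still far above every earlier array. At day 2 it had stood at 8.84, 9.54 and 9.18, above all 3 day 6 arrays, which read 8.70, 8.80 and 8.82. That early difference of -0.41 did not pass the test (limma adjusted p = 0.0623). It passed with array weights, with quantile normalization and with replicate number as a block. It also passed without day 2 replicate 1, day 13 replicate 1 or day 13 replicate 3.

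The 2 largest falls were those of paxillus_383 and paxillus_9783, and both had been going down before. paxillus_383 read 12.60, 12.60 and 12.34 at day 8 and 10.00, 9.32 and 9.19 at day 13. It fell 8.06-fold (log2 difference -3.01 ± 0.18 SE, limma adjusted p = 1.62e-07). It had already dropped between day 2, at 13.90 to 14.12, and day 6, at 13.38, 13.01 and 13.39. The late fall was larger than that early difference of -0.75 (late minus early -2.26 ± 0.26 SE, limma adjusted p = 2.02e-05). With days 6 and 8 exchanged the late difference was -3.76 and the early one -1.49.

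paxillus_9783 read 10.70, 10.24 and 9.33 at day 8 and 6.94, 7.48 and 6.90 at day 13. Its day 8 arrays were unusually scattered, with an SD of 0.70, yet the lowest of them lay above the highest at day 13. The fall was 7.89-fold (log2 difference -2.98 ± 0.29 SE, limma adjusted p = 4.94e-06). In the early step it had gone from 13.00, 12.78 and 12.91 to 11.30, 10.51 and 10.88, also past the threshold (limma adjusted p = 2.54e-04). With days 6 and 8 exchanged the late difference was -3.79 and the early one -2.81. The late minus early difference of -0.98 ± 0.41 SE missed the threshold (limma adjusted p = 0.0615). It passed with array weights, with replicate number as a block and without day 6 replicate 2, day 8 replicate 3 or day 13 replicate 2.

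**Figure D3:**
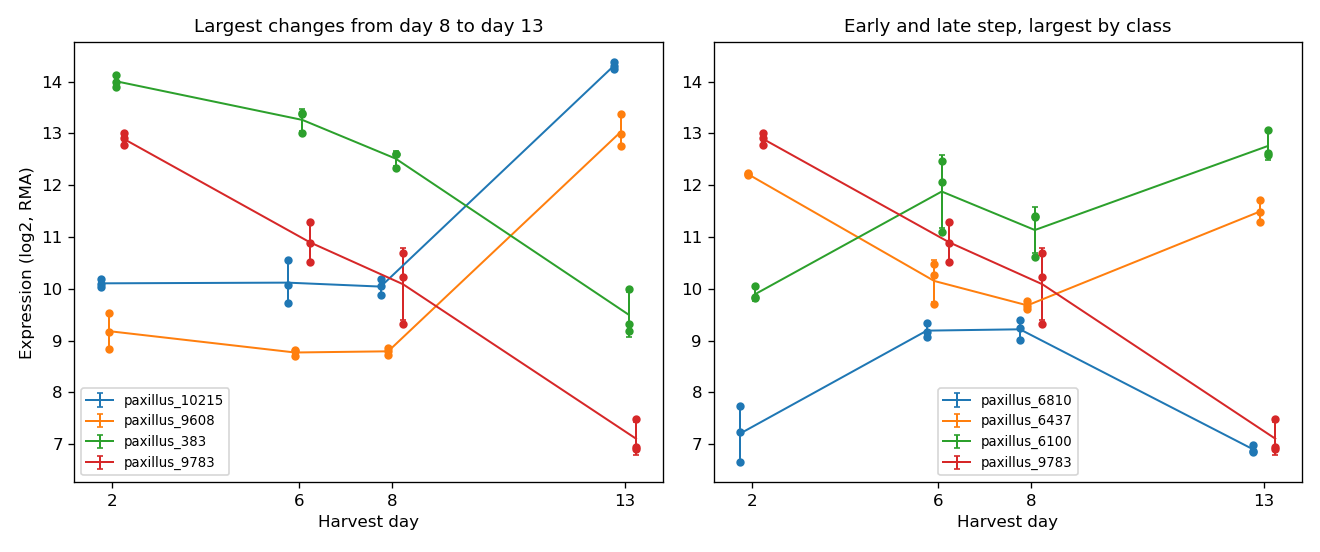
Log2 expression (vertical axis) by harvest day (horizontal axis) for the largest late rises and falls (left) and for the sequences with the largest changes in both the early and the late step (right). Points are single arrays, lines join day means and bars are SD over 3 arrays. In the order of the titles, the 2 late rises at left change little until day 8, and the means of the 2 falls go down throughout.

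The brightest sequences held more falls than rises and the dimmest more rises than falls. Sequences were put into 4 equal groups by their mean signal over the arrays of days 2 and 6, which take no part in the late difference. Signal on an array also depends on the probes and is not an abundance. RMA gives all arrays nearly the same distribution, which leaves the brightest sequences more room to fall and the dimmest more room to rise. How much this adds to the pattern was not tested. In the brightest group, 36.3% fell and 23.7% rose. In the dimmest group, 19.5% fell and 25.4% rose. The groups between had 28.1% falls and 26.7% rises, and 29.3% and 27.2%, so falls became more frequent with signal while the share of rises differed little. The contrast was sharper among changes of at least 2-fold, with 54 rises and 150 falls in the brightest group and 148 rises and 83 falls in the dimmest. At this size the middle groups lay between, with 132 rises and 102 falls in the dimmer and 103 and 112 in the brighter. The median late difference went from 0.06 in the dimmest to -0.07 in the brightest group, while the median absolute difference was 0.28 in both. The median SE was 0.123 in the dimmest and 0.0849 in the brightest group, so the called shares differ in precision.

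Rises of at least 4-fold were nearly absent from the brightest group. It held 4 of them, while the other groups held 23, 33 and 23 from dim to bright. Falls of that size ran the other way, with 3 and 4 in the 2 dimmer groups and 11 and 10 in the 2 brighter. The highest reading on any array of days 8 and 13 was 15.57. How far the upper end of the scanner's scale limits rises in the brightest group was not tested. With days 6 and 8 exchanged, the dimmest group had 204 rises and 150 falls of at least 2-fold and the brightest 54 and 205.

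**Figure D4:**
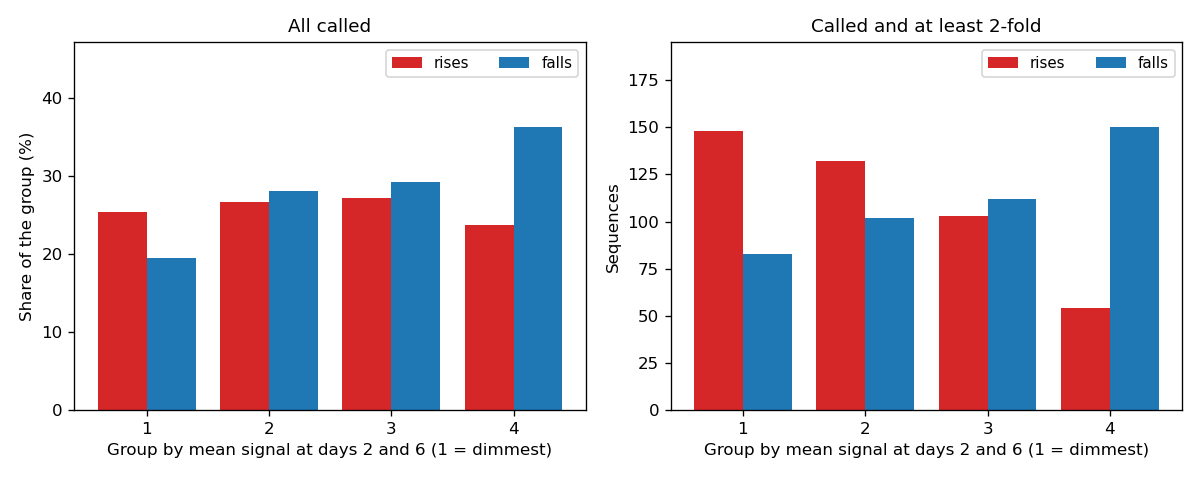
Share of sequences called (left, percent of each group) and number called and changed at least 2-fold (right) in the late step, by group of mean signal at days 2 and 6 (horizontal axis). Falls go from 19.5% in the dimmest group to 36.3% in the brightest, and rises of at least 2-fold from 148 to 54.

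Most large changes took the sequence to a level not seen at any earlier harvest. Over all 12214 sequences, the 3 day 13 arrays lay above all 9 earlier arrays in 17.6% and below all 9 in 17.3%. Among the rises of at least 2-fold, 405 of 437 (92.7%) lay above all 9. Among the falls, 380 of 447 (85%) lay below all 9. These sequences were selected for a day 13 level away from day 8, which by itself raises both shares. Some large changes ended near the day 2 level. The means of days 13 and 2 were within 0.5 of each other on the log2 scale in 44 of the 437 rises (10.1%) and 68 of the 447 falls (15.2%), against 58.8% of all sequences. Selection for a change after day 8 lowers these shares too.

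The late step was then set beside the early step, sequence by sequence. As their arrays are disjoint, chance deviations of an array cannot enter both differences. Both steps come from the same chip and the same RMA run. The calls of both steps use the same estimate of spread for a sequence. A sequence with little spread is therefore more easily called in both. Across the 12214 sequences the 2 differences were nearly unrelated, with Pearson's r = -0.09 and Spearman's rho = -0.12. Pearson's r was 0.24 with days 6 and 8 exchanged. Sequences are not independent replicates, and these values are given as a description.

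Among sequences called early, late changes in the opposite direction outnumbered those in the same direction. Of the 2808 that rose from day 2 to day 6 (23% of all), 1045 fell in the late step (37.2%) and 518 rose (18.4%). Of the 2827 that fell early (23.1%), 879 rose late (31.1%) and 801 fell (28.3%). Over all sequences 25.8% rose and 28.3% fell late. Of the 3243 sequences called in both steps, 1924 (59.3%) moved in opposite directions. This majority depended on the order of the middle days. With days 6 and 8 exchanged the share was 34.2%, with 1546 opposite and 2981 in the same direction. Under the 23 other settings it ranged from 54.7% to 63.0%. The 518 sequences that rose in both steps became 345 without day 6 replicate 2.

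The excess of late falls was larger at larger early rises. Of sequences up to 0.25 higher at day 6 on the log2 scale, 26.2% fell late and 25% rose. Of those 0.25 to 0.5 higher, 34% fell and 21.1% rose. Between 0.5 and 1, 37.9% fell and 15.3% rose, and among the 283 that were over 1 higher, 39.6% fell and 11.3% rose. After early falls the shares turned with size. Up to 0.25 lower at day 6, 23.6% fell late and 29.8% rose, and between 0.25 and 0.5 lower the shares were 22.4% and 31.7%. Among the 152 sequences over 1 lower at day 6, 50% fell again and 17.1% rose. With days 6 and 8 exchanged the excess after early rises was the other way, and 23.4% of the 512 sequences over 1 higher fell late while 39.1% rose. The 501 sequences over 1 lower went on downwards in that setting too, with 68.7% falling and 10.4% rising.

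The early course of the large late changes was mixed. Of the 437 rises of at least 2-fold, 259 (59.3%) were not called in the early step, against 53.9% of all sequences. A further 87 had risen early and 91 had fallen. Of the 447 large falls, 175 (39.1%) were not called early, while 144 had risen and 128 had fallen. Some sequences changed at least 2-fold in both steps. Of the 282 that rose at least 2-fold early, 36 fell and 13 rose by that much late. Of the 152 that fell at least 2-fold early, 8 rose and 19 fell by that much late. Over all sequences 3.58% rose and 3.66% fell at least 2-fold late. All these counts follow the order of the titles. In the exchanged order, late rises of any size outnumbered late falls after large early rises, as given above.

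**Figure D5:**
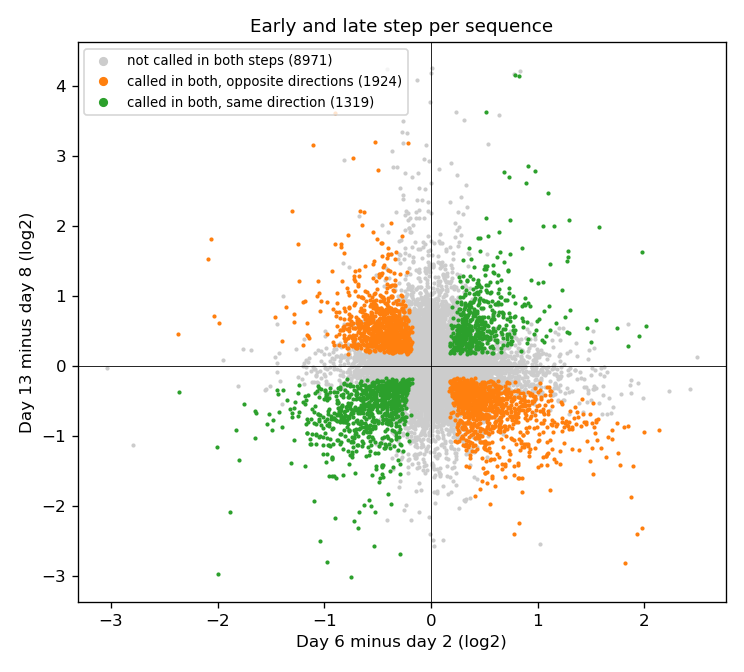
Log2 difference of the late step (vertical axis) against that of the early step (horizontal axis) for each of the 12214 sequences. Sequences called in both steps are coloured by direction, 1924 opposite and 1319 the same.

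The difference between the steps was tested directly, as late minus early in the same fit, and 6766 sequences (55.4%) passed. All 1924 sequences called in opposite directions were among them, which those calls imply in the same fit and is no further evidence. Of the 1319 called in the same direction, 162 of 518 double rises and 216 of 801 double falls passed.

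paxillus_6810 was the clearest case of an early rise undone late. It read 7.74, 7.23 and 6.66 at day 2 and 9.07, 9.35 and 9.16 at day 6. It stayed at 9.25, 9.40 and 9.01 at day 8 and then went to 6.87, 6.86 and 6.99. The day 13 arrays fell within the range of the day 2 arrays. The early rise was 3.95-fold (log2 difference 1.98 ± 0.21 SE, limma adjusted p = 3.40e-05) and the late fall was 4.97-fold (-2.31 ± 0.21, adjusted p = 2.31e-06).

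paxillus_6437 took the opposite course. From 12.19, 12.22 and 12.23 at day 2 it went to 10.27, 9.70 and 10.48 at day 6 and to 9.61, 9.66 and 9.77 at day 8. It came back to 11.48, 11.29 and 11.71 at day 13, and these arrays stayed below all 3 of day 2. The late rise was 3.52-fold (log2 difference 1.81 ± 0.16 SE, limma adjusted p = 2.38e-06), after an early fall of 4.18-fold (-2.06 ± 0.16, adjusted p = 6.55e-06). The recovery was thus partial.

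Among sequences that rose in both steps, paxillus_6100 was the sequence whose smaller rise was largest. It went from 10.05, 9.83 and 9.82 at day 2 to 12.07, 12.47 and 11.09 at day 6. At day 8 it read 11.41, 11.38 and 10.61 and at day 13 12.58, 12.62 and 13.07. Arrays of days 6 and 8 overlapped and were widely spread, while those of day 13 lay above both. The late rise was 3.08-fold (log2 difference 1.62 ± 0.30 SE, limma adjusted p = 6.31e-04). With days 6 and 8 exchanged the late difference was 0.88, still past the threshold (limma adjusted p = 0.0240). By the same rule the sequence that fell in both steps was paxillus_9783, described above.

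Late changes were only weakly shared between neighbouring numbers. The late differences of sequences with consecutive numbers correlated at r = 0.12 over 11427 pairs, and at 0.07 over the 11135 pairs outside the runs of similar profile. At a distance of 2 numbers r was 0.07, at 5 it was 0.02 and at 50 it was -0.01. What consecutive numbers share, such as gene, locus or array design, is not recorded in the files. Of sequences changed at least 2-fold late, 11.3% had a next number changed at least 2-fold in the same direction and 4.87% in the opposite direction, and outside the runs of similar profile these shares were 7.1% and 5.16%. Over all sequences 3.58% rose and 3.66% fell by that much.

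Groups of 3 or more consecutive numbers that all changed at least 2-fold the same way were found 11 times. In 3 of them, with 10 sequences, the members rose, and in 8, with 26 sequences, they fell. Falls made up most of these groups, but 11 groups are too few to set against the about equal numbers of rises and falls of this size. Some groups were such runs of similar profile, but in 4 of the falling groups no 2 members were linked into a run. The largest of these 4 held 4 sequences, with log2 differences from -2.24 to -1.11 and day 8 means from 11.25 to 13.99.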

How the data were processed

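Total RNA of 12 samples was measured on 12 subarrays of a 1-colour (Cy3) NimbleGen chip. The deposited values are log2 expression values from the authors' whole-array RMA, as recorded in the submitters' processing notes and per the file headers. The log2 scale was inferred from their range, and the RMA version is not given in the sources used here. Each value rests on 10 probe pairs for 12203 sequences. The series-wide table held the same values in all 146568 cells.

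Days were taken from the titles. A model with a mean for each day was fitted to all 12 arrays (lmFit and eBayes of limma 3.58.1, in R 4.3.3). Replicate number was not a term. Residual degrees of freedom were 8 and prior ones 4.23. P-values were Benjamini-Hochberg adjusted over 12214 sequences for each contrast, with a threshold of 0.05. The number of arrays limits the precision, and the median standard error of a late difference was 0.0999. The code was tested on simulated data. No dim sequences were removed.

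Because sequences have no gene names, the rule named the 2 largest rises and 2 largest falls with non-overlapping arrays. It also named, for each combination of early and late direction, the sequence whose smaller step was largest. These choices were made with earlier results of these data known. The counts at 4-fold and above and the runs of consecutive changes are descriptions. No gene list could be applied.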

Additional observations from a re-analysis of the deposited data

Results flagged for a closer look

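The late and the early step were called in opposite directions in 1045 sequences that rose early and fell late and in 879 that fell early and rose late. The test of late minus early passed in all of them, as the calls themselves imply. Both counts changed with the order of the middle days, to 789 and 757 with days 6 and 8 exchanged.

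Of the 7 named sequences, 5 had a late minus early difference past the threshold. It was 4.24 on the log2 scale for paxillus_10215 and 4.65 for paxillus_9608, which had no called early change. It was -2.26 for paxillus_383, which fell in both steps. For paxillus_6810 it was -4.30 and for paxillus_6437 it was 3.88, with opposite directions in the 2 steps. These sequences were chosen for large changes in the same arrays.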

How the results depend on the processing

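The late step kept its size under most settings. Its 6609 calls ranged from 5640 to 6908 with 1 array left out, were 6303 in a fit of only its 6 arrays and 7143 with days 6 and 8 exchanged, of which 5150 were among the 6609. A test against a minimum fold of 1.5, stricter by construction, left 984 late calls (511 rises and 473 falls), 203 early calls and 1557 for the difference of steps. It left 14 sequences that rose early and fell late, 8 that fell and rose, 4 that rose in both and 10 that fell in both. A threshold of 0.01 left 3749 early calls and 558, 480, 232 and 504 sequences in these 4 classes. With days 6 and 8 exchanged, 679 sequences fell at least 2-fold, 1482 rose in both steps and 1499 fell in both, since other arrays enter each step. Double rises ranged from 345 to 553 with 1 array left out. The 1 fall of at least 8-fold became 0 without day 8 replicate 1, day 8 replicate 2 or day 13 replicate 3, 2 without day 8 replicate 3, 0 with quantile normalization and 2 with array weights; the cause was not tested. Of 497 values of the 7 named sequences (late, early and late minus early), 480 kept direction and call, among them all late values. The early difference of paxillus_10215, near 0 and not called, turned to -0.023 with quantile normalization, -0.015 with array weights and -0.063 with days 6 and 8 exchanged, and ranged from -0.20 to 0.21 with 1 array left out, below 0 without day 2 replicate 1 or day 6 replicate 2. The other 12 were threshold crossings: 11 in the early difference of paxillus_9608 and the late minus early difference of paxillus_9783, and 1 in the early fall of paxillus_383, which missed the minimum fold of 1.5. The replicate number as a block gave 6540 late calls, 6422 of them shared, moved no count by over 1.5 times, and brought the early difference of paxillus_9608 (limma adjusted p = 0.0318) and late minus early for paxillus_9783 (limma adjusted p = 0.0480) past the threshold. Same-numbered arrays of days 13 and 8 deviated from their day means with r = -0.24, -0.30 and 0.08, so the numbers were not taken as pairs. Signal over background limits the dimmest sequences, and the 567 under 2-fold above it on all 6 arrays gave 49 calls.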
